A study of Mus musculus with 10 samples.

Results

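The genes described here encode the classical axon guidance ligands and their receptors: the semaphorins, plexins and neuropilins, the ephrins and Eph receptors, the Slits and Robos, and the netrins with Dcc and the Unc5 receptors. They were chosen by gene symbol among the protein-coding genes of RefSeq for the mouse build GRCm38.p6, which gave 69 of 21900 genes, 35 of ligands and 34 of receptors. Semaphorins and ephrins anchored in the membrane were counted as ligands, although some of them also signal into their own cell. A peak of the m6A map was given to a gene if it overlapped the gene's span by at least 50% of the shorter of both, on the strand whose peaks held more immunoprecipitation (IP) reads. The map came from neural progenitor cells of the hypothalamus of E14.5 Mettl14 f/f mouse embryos, in which exons of Mettl14, a subunit of the m6A methyltransferase, are flanked by loxP sites. Cells grew with FGF2 and EGF at 20 ng/ml each and were exposed for 24 hours to a lentivirus, either lenti-EGFP-Cre for Mettl14 knockout or lenti-EGFP for control. After 72 hours the EGFP-positive cells were sorted. All groups thus carry the floxed alleles, a virus and EGFP, and the cells are progenitors in culture rather than neurons growing axons. The labels list 4 knockout and 4 control m6A IP libraries, with 1 knockout and 1 control input library, and do not say whether replicates came from separate embryos or cultures.

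N6-methyladenosine (m6A) is a methyl mark that the Mettl3 and Mettl14 complex places on adenosines of messenger RNA, most often within a short sequence centred on the letters GAC, and reader proteins that bind it can change how long an mRNA lasts or how well it is translated. Axon guidance molecules are cues and receptors that attract or repel growing axons and migrating cells. Many are already made by neural progenitors, where they help to shape boundaries between brain regions, hold progenitors in place and steer the neurons that leave them.

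The deposited values do not separate the libraries, so knockout and control could not be compared for any of these genes. In the authors' deposited table each peak has 1 number of IP reads and 1 of input reads, which name no library, and so no replicates and no SD. The medians over all 21195 peaks were 864 IP and 466 input reads, and the depth of single libraries is unknown. Which libraries entered these numbers, and whether as sums or means, was not given in the sources used here. Where a ratio of IP to input reads is printed below, its interval is the exact Clopper-Pearson 95% interval, which covers counting error only and holds if the numbers are plain sums of reads. The ratio is not corrected for depth. All read numbers come from the authors' deposited table. Its log2 fold change is the authors' own value and was taken to be IP over input, which the table does not spell out. It is called the deposited log2 fold change, and a value cited below from that table without another name is that quantity. Among markers of the labelled cell type, 7 of 11 neural progenitor genes and 4 of 8 hypothalamic genes carried a peak. Of the 8 markers of microglia, blood, vessels and mesenchyme 0 carried one, against 4 of 8 for neurons, 3 of 5 for astrocytes and 5 of 7 for the oligodendrocyte lineage. Over all protein-coding genes the share was 44.2%. The share of the oligodendrocyte lineage (71.4%) was above that of the progenitor genes (63.6%), so these short lists do not establish the cell type. A missing peak does not tell an unmethylated transcript from one that was scarce or absent.

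Of the 69 guidance genes, 50 (72.5%) carried at least 1 m6A peak. The same rule gave a peak to 44.2% of all protein-coding genes. Guidance genes are long, with a median span of 46.3 kb against 17.1 kb for all protein-coding genes, and longer genes carried peaks more often in general. Among genes of 100 kb or more, 26 of 32 guidance genes (81.2%) and 70.9% of all genes had a peak. Between 20 and 100 kb the counts were 11 of 16 guidance genes (68.8%) and 55.5% of all genes, and below 20 kb they were 13 of 21 (61.9%) and 31.4%. The other genes include silent ones, whose number is not known. By role, 24 of 35 ligand genes (68.6%) and 26 of 34 receptor genes (76.5%) had a peak. All 9 plexins, both neuropilins and all 5 EphB receptors did. The 19 guidance genes without a peak were the semaphorins Sema3b, Sema3g, Sema4a, Sema4d and Sema4f, the ephrins Efna3, Efna5 and Efnb3, the Eph receptors Epha1, Epha6, Epha8 and Epha10, Slit1 and Slit3, Robo3 and Robo4, the netrin Ntn5, and the netrin receptors Unc5a and Unc5d. Their median span was 27.4 kb, against 110 kb for the 50 genes with a peak.

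The 50 genes held 108 peaks, each assigned to 1 guidance gene, with 489250 IP and 167795 input reads in all. The number of input reads ran from 13 to 43527 per peak, with a median of 433. A single peak was found in 19 genes, 2 in 16, 3 in 8, 4 in 5, 5 in Epha5 and 8 in Robo1. Thus 7 of 69 genes (10.1%) had 4 or more peaks, and 4.80% of all protein-coding genes did. The typical enrichment was close to that of the whole map. The median deposited log2 fold change in the authors' deposited table was 2.84 for the guidance peaks (exact binomial 95% interval of the median 2.62 to 3.19) and 3.06 for all peaks. This interval treats the peaks as independent, although 31 genes gave 2 or more of them, so it may be too narrow. Of the 108 peaks, 45 (41.7%) lay above the median of all peaks, above which 50% of all peaks lie by definition. Their middle 90% ran from 1.18 to 4.99 in the authors' deposited table, and that of all peaks from 1.63 to 4.74. No guidance peak (0 of 108) had under 10 input reads, against 1.65% of all peaks. A value of 4 or more was reached by 23 of the 108 peaks (21.3%), against 19.8% of all peaks in the authors' deposited table. Those peaks lay in 16 of the 69 genes (23.2%), against 13.5% of all protein-coding genes in the authors' deposited table. Guidance genes carried a peak more often, and among genes with a peak the shares were alike. They were 16 of 50 guidance genes and 2964 of 9674 protein-coding genes. Of the 16 genes, 8 were among the 15 semaphorins with a peak, 0 among the 5 such ephrins and 0 among the 2 such Robos.

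**Figure D1:**
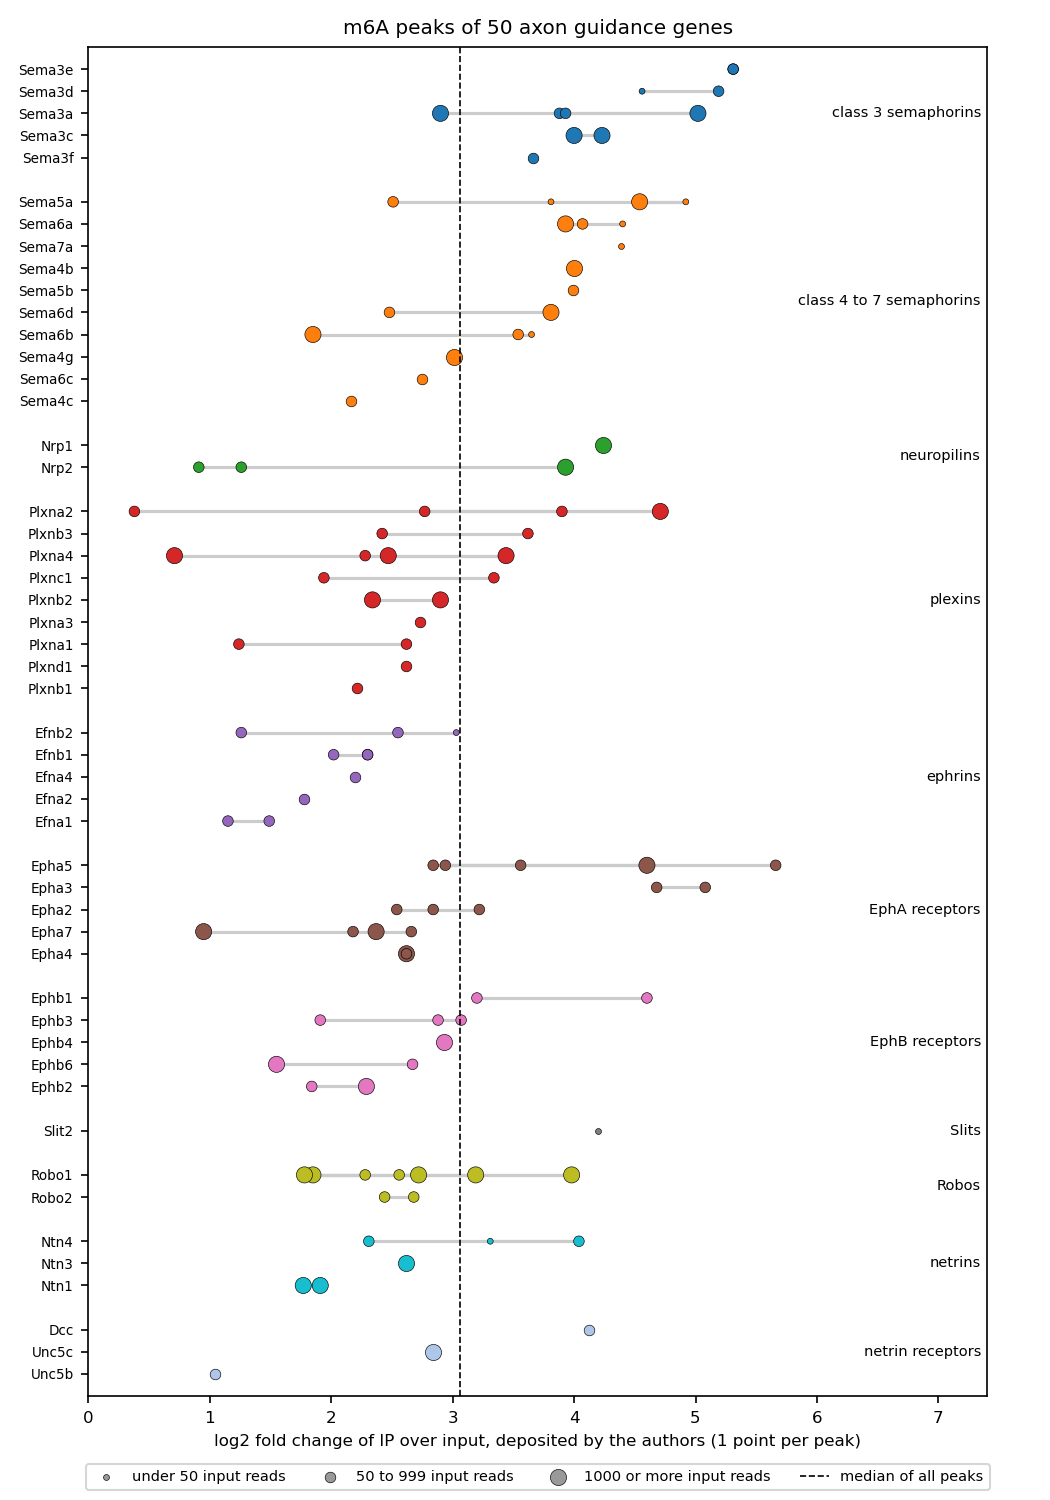
Deposited log2 fold change of IP over input for each of the 108 peaks (points, sized by input reads) of the 50 guidance genes with a peak (rows), with a grey line joining the peaks of a gene. Class 3 semaphorins lie almost wholly right of the dashed median of all peaks at 3.06, and the 10 ephrin peaks lie left of it.

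The class 3 semaphorins, secreted ligands that act through neuropilins and plexins, had the highest median deposited value of the subgroups with more than 1 peak. Of their 11 peaks 10 lay above the median of all peaks, with a median of 4.23 and a range of 2.90 to 5.31 in the authors' deposited table. By the median log2 ratio of IP to input reads they stood at 2.09, close to the semaphorins of classes 4 to 7 at 2.06. Sema3e, a ligand of Plxnd1 that shapes axon tracts and vessels, had a peak towards each end of its span. The peak near its 5' end (chromosome 5, 14025876 to 14025975, plus strand) had 825 IP and 143 input reads, a ratio of 5.77 (4.83 to 6.94). The peak towards its 3' end (14236384 to 14253204) had 620 IP and 110 input reads, a ratio of 5.64 (4.60 to 6.97). Both stood at 5.31 in the authors' deposited table, so that Sema3e had like values towards both ends. Sema3d had 511 IP and 100 input reads in its stronger peak (12578772 to 12585578), a ratio of 5.11 (4.12 to 6.40), and 5.19 in the authors' deposited table. Its other peak rested on 54 IP and 15 input reads.

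Sema3a, the repellent first known for collapsing growth cones, had 4 peaks. Of these, 3 lay close together, between 57.3% and 57.5% of its span, and 1 near its 3' end. The strongest (chromosome 5, 13399939 to 13400038, 100 bases, plus strand) had 17969 IP and 4213 input reads, a ratio of 4.27 (4.12 to 4.41), and 5.02 in the authors' deposited table. The first of the 3 (13398784 to 13399040) had 3642 IP and 2266 input reads, a ratio of 1.61 (1.52 to 1.69), and 2.90 in the authors' deposited table. Enrichment thus differed beyond counting error between neighbouring stretches of the same gene. Sema3c, a ligand with roles in neuron migration and vessel growth, had 4294 IP and 1783 input reads in its last peak and 4.23 in the authors' deposited table. Sema3f, which acts mainly through Nrp2, had a single peak with 719 IP and 133 input reads, a ratio of 5.41 (4.49 to 6.55), and 3.66 in the authors' deposited table. Sema3d, Sema3a, Sema3e and Sema3c follow each other within 5.35 Mb of chromosome 5 and span 155 to 479 kb each. All 4 held a peak of 4 or more in the authors' deposited table, against 13.5% of all protein-coding genes. On other chromosomes, Sema3f (29.0 kb) had its peak at 3.66 in the authors' deposited table. Sema3b (11.6 kb) and Sema3g (12.5 kb), also on other chromosomes, had no peak.

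The semaphorins of classes 4 to 7 are held in the membrane, and 10 of the 13 genes carried 18 peaks with a median of 3.81 in the authors' deposited table. Sema6a, a transmembrane ligand of Plxna2 and Plxna4, held the most reads of any guidance peak. That peak (chromosome 18, 47247173 to 47270621, minus strand) had 168343 IP and 43527 input reads, a ratio of 3.87 (3.83 to 3.91), and 3.93 in the authors' deposited table. Its 2 smaller peaks had 315 IP and 70 input reads near the 5' end and 211 IP and 38 input reads near the 3' end, with 4.07 and 4.40 in the authors' deposited table. All 3 peaks of Sema6a thus lay well above the median of all peaks. Sema5a, which has thrombospondin repeats and can attract or repel, ended in a peak of 161 bases at the 3' limit of its span (chromosome 15, 32696181 to 32696341) with 11133 IP and 3463 input reads. Its ratio was 3.21 (3.09 to 3.34), with 4.54 in the authors' deposited table. The highest value of Sema5a, 4.92 in the authors' deposited table, rested on 87 IP and 13 input reads.

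Sema4b had 9504 IP and 1941 input reads in its only peak (chromosome 7, 80221803 to 80226527), a ratio of 4.90 (4.66 to 5.14), and 4.0 in the authors' deposited table. Sema5b had 765 IP and 135 input reads and 3.99, and Sema6d had 7600 IP and 2125 input reads in its stronger peak and 3.81, in the authors' deposited table. Sema7a, the semaphorin anchored by a lipid, had the highest read ratio of all guidance peaks, 9.35, but with 159 IP and 17 input reads its interval ran from 5.66 to 16.5. Sema6b, a ligand of class A plexins, showed a wide spread among its 3 peaks, all towards the 3' end. Its peak richest in reads (chromosome 17, 56123660 to 56124459) had 25538 IP and 9872 input reads, a ratio of 2.59 (2.53 to 2.65), and 1.85 in the authors' deposited table. The next peak upstream (56124485 to 56124784) had 466 IP and 56 input reads, a ratio of 8.32 (6.30 to 11.2), and 3.54 in the authors' deposited table. The intervals of these neighbouring peaks do not overlap. Sema4g reached 3.01 and Sema6c 2.75 in the authors' deposited table. For Sema4c the assigned peak lies on the strand opposite to the annotated one and is described at the end.

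Neuropilins are the co-receptors that bind class 3 semaphorins and VEGF, and both carried m6A peaks. Nrp1 had a single peak (chromosome 8, 128498044 to 128503363, plus strand) with 4371 IP and 1094 input reads, a ratio of 4.0 (3.74 to 4.27), and 4.24 in the authors' deposited table. That peak carried 2 gene identifiers. Nrp2 had 3 peaks of unequal strength. The last, 142 bases at the very 3' end (chromosome 1, 62818554 to 62818695), had 2661 IP and 1120 input reads, a ratio of 2.38 (2.21 to 2.55), and 3.93 in the authors' deposited table. The other 2 peaks of Nrp2 held fewer IP than input reads. The peak at the 5' end (62703285 to 62719011) had 226 IP and 393 input reads, a ratio of 0.575 (0.486 to 0.679), the lowest among the guidance peaks.

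Plexins are the signalling receptors for semaphorins. All 9 genes had a peak, yet only 5 of their 19 peaks lay above the median of all peaks, and their median was 2.62 in the authors' deposited table. By the median log2 ratio of IP to input reads they stood at 1.31, against 1.23 for all peaks, and ranked 3 of 9 subfamilies. Plxna2, a receptor for Sema6a and, with neuropilins, for class 3 semaphorins, held the strongest and the weakest plexin peak. The strong one (chromosome 1, 194620743 to 194644435, plus strand) had 23114 IP and 3193 input reads, a ratio of 7.24 (6.98 to 7.51), and 4.71 in the authors' deposited table. Just upstream, a peak at the 5' end of the gene (194619843 to 194620517) had 845 IP and 923 input reads, a ratio of 0.915 (0.833 to 1.01), and 0.38 in the authors' deposited table. Its adjusted p of 5.19e-02 in the authors' deposited table made it the only guidance peak at 0.05 or more, a level reached by 8 of all 21195 peaks (0.0377%). Plxna4, which mediates Sema3a and Sema6a responses, had the second largest number of IP reads. Its peak near the 3' end (chromosome 6, 32148868 to 32152808, minus strand) had 47105 IP and 14324 input reads, a ratio of 3.29 (3.23 to 3.35), and 3.44 in the authors' deposited table. At its 5' end, a peak of 75 bases had 2410 IP and 3100 input reads, a ratio of 0.777 (0.737 to 0.820), and 0.71 in the authors' deposited table. Plxna2 and Plxna4 thus had their weakest peak at the start of the gene.

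Plxnb2, a receptor for class 4 semaphorins with a known role in proliferating neural progenitors, had 24775 IP and 6964 input reads in a peak at 56.2% of its span (chromosome 15, 89166728 to 89167551, minus strand), a ratio of 3.56 (3.46 to 3.65). Its value in the authors' deposited table was 2.90, and its peak near the 3' end stood at 2.34. Plxnb3 had 2939 IP and 689 input reads near its 5' end, a ratio of 4.27 (3.92 to 4.64), and 3.62 in the authors' deposited table. For Plxnc1, the receptor of Sema7a, both peaks lay at the 5' end, at 0.236% and 0.492% of the span. They had 1027 IP and 194 input reads and 628 IP and 232 input reads, with 3.34 and 1.94 in the authors' deposited table, and each carried 2 gene identifiers. Strongest peaks of the other plexins stood at 2.73 for Plxna3, 2.62 for Plxna1 and for Plxnd1, the receptor of Sema3e, and 2.21 for Plxnb1 in the authors' deposited table. The ligand Sema3e at 5.31 and its receptor Plxnd1 at 2.62 thus lay on different sides of the median of all peaks by the deposited value. By the log2 ratio of IP to input reads, Plxnd1 at 1.23 was level with the median of all peaks (1.23). The Sema3e peaks stood at 2.52 and 2.49 by that measure.

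Ephrins are ligands tethered to the cell surface that signal to Eph receptor tyrosine kinases on contact, and their deposited values were low. Of 10 peaks in 5 genes, 0 lay above the median of all peaks, and their median was 2.11 in the authors' deposited table, the lowest of 9 subfamilies. By median log2 read ratio (0.76) they ranked 6 of 9, above the netrin receptors (0.69), neuropilins (0.49) and Robos (-0.02). Efnb1, which marks boundaries between cell groups and keeps cortical progenitors in place, had 2075 IP and 624 input reads near its 5' end (chromosome X, 99136130 to 99136579), a ratio of 3.33 (3.04 to 3.64), and 2.30 in the authors' deposited table. Its 2 peaks towards the 3' end had 1147 IP and 437 input reads and 309 IP and 192 input reads, so its read ratio was highest at its start. Efnb2 reached 3.03 in the authors' deposited table, on 76 IP and 27 input reads, and 2.55 in a better covered peak of 1270 IP and 828 input reads. The A ephrins, linked to the membrane by a lipid anchor, were lower still. Efna4 had 491 IP and 267 input reads and 2.20, Efna2 had 487 IP and 427 input reads and 1.78, and the better of the Efna1 peaks had 146 IP and 142 input reads and 1.49 in the authors' deposited table. Efna3, which lies between Efna1 and Efna4 on chromosome 3, had no peak.

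Eph receptors spanned nearly the whole range of the guidance genes. The 10 of 14 genes with a peak held 26 peaks, with a median of 2.84 and a range of 0.95 to 5.66 in the authors' deposited table. Epha5, a receptor for A ephrins in the developing forebrain, had 5 peaks and the highest value of all guidance genes. Its peak near the 3' end (chromosome 5, 84056286 to 84056960, minus strand) had 5484 IP and 838 input reads, a ratio of 6.54 (6.08 to 7.05), and 5.66 in the authors' deposited table, above 99.6% of all peaks. The next peak upstream, of 625 bases, had 109 IP and 105 input reads, a ratio of 1.04 (0.787 to 1.37), and still 2.94 in the authors' deposited table. Another Epha5 peak, at 20.1% of the span, had 557 IP and 556 input reads and 2.84 in the authors' deposited table. Epha3, another A-type receptor, had 1930 IP and 420 input reads (chromosome 16, 63653432 to 63775855, minus strand), a ratio of 4.60 (4.13 to 5.12), and 5.08 in the authors' deposited table. This peak spans 122424 bases of the gene from end to end. The block sizes deposited with the peaks were not used here, so the exons it stands for were not placed.

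Epha7, a receptor expressed in graded fashion in the embryonic forebrain, had 4 peaks and no strong one. Its peak of 75 bases at the 5' end (chromosome 4, 28813281 to 28813355) had 1254 IP and 1739 input reads, a ratio of 0.721 (0.670 to 0.776), and 0.95 in the authors' deposited table. The other 3 lay between 2.18 and 2.66 in the authors' deposited table. Both peaks of Epha4, a receptor for A and B ephrins, stood at 2.62, and Epha2 reached 3.22 with 976 IP and 260 input reads in the authors' deposited table. Among the B-type receptors, Ephb1 led with 6552 IP and 982 input reads at its 3' end (chromosome 9, 101922128 to 101929268, minus strand), a ratio of 6.67 (6.24 to 7.14), and 4.60 in the authors' deposited table. Ephb3, Ephb4, Ephb6 (which lacks kinase activity) and Ephb2 followed with 3.07, 2.93, 2.67 and 2.29 in the authors' deposited table. Ephb6 also had a peak with 891 IP and 1173 input reads, and the next one downstream had 1489 IP and 433 input reads. In read ratios these were 0.760 (0.695 to 0.829) and 3.44 (3.09 to 3.84).

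Slits are large secreted repellents that signal through receptors of the Robo family. Slit2 was the only Slit with a peak (chromosome 5, 48302891 to 48304650, plus strand), with 217 IP and 45 input reads, a ratio of 4.82 (3.48 to 6.80), and 4.20 in the authors' deposited table. Robo1 had 8 peaks, the most of any guidance gene, of which 6 lay in the last 10% of its span of 1020 kb. The strongest, of 125 bases (chromosome 16, 73035677 to 73035801, plus strand), had 5518 IP and 1957 input reads, a ratio of 2.82 (2.68 to 2.97), and 3.98 in the authors' deposited table. Next came 2 peaks at 3.19, with 1121 IP and 764 input reads and 2625 IP and 1942 input reads. In 3 of the 8 peaks there were fewer IP than input reads, and 1 more had 3087 IP and 3031 input reads. Robo2, its neighbour on chromosome 16, had 332 IP and 397 input reads and 204 IP and 213 input reads in its 2 peaks, with 2.44 and 2.68 in the authors' deposited table. Robo3 and Robo4, which lie side by side on chromosome 9, had no peak.

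Netrins attract axons through Dcc and repel them through Unc5 receptors. Ntn1, the netrin of the ventral midline, had 2 wide and weak peaks (chromosome 11, minus strand). The wider, of 108266 bases from end to end, had 1312 IP and 1159 input reads, a ratio of 1.13 (1.05 to 1.23), and 1.91 in the authors' deposited table. The other had 1295 IP and 1139 input reads and 1.77 in the authors' deposited table. Ntn4, a netrin of basement membranes that binds laminin, reached 4.04 in the authors' deposited table with 511 IP and 127 input reads (chromosome 10, 93641379 to 93682607), a ratio of 4.02 (3.31 to 4.93). Of the receptors, Dcc had 232 IP and 77 input reads (chromosome 18, 71258459 to 71299341, minus strand), a ratio of 3.01 (2.32 to 3.95), and 4.12 in the authors' deposited table. Unc5c had 2828 IP and 1749 input reads near its 3' end and 2.84 in the authors' deposited table. Unc5b had 937 IP and 764 input reads at its 5' end, a ratio of 1.23 (1.11 to 1.35), and 1.04 in the authors' deposited table.

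The guidance peaks gathered at the 3' end and, in genes of 20 kb or more, to a lesser degree at the 5' end of the gene span. Of the 108 peaks, 59 (54.6%, exact binomial 95% interval 44.8 to 64.2) had their midpoint in the last 10% of the span, against 37.0% of the peaks of all protein-coding genes. In the first 10% there were 19 (17.6%, interval 10.9 to 26.1), against 9.61%. Both intervals treat the peaks as independent, although peaks of the same gene can lie close together, so they may be too narrow. In genes of 100 kb or more, the last 10% held 38 of 69 guidance peaks (55.1%) and 42.2% of all peaks, and the first 10% held 14 (20.3%) and 10.6%. In the first 10%, the shares between 20 and 100 kb were 3 of 17 guidance peaks (17.6%) and 9.62% of all peaks, and below 20 kb they were 2 of 22 (9.09%) and 8.79%. Between 20 and 100 kb the last 10% held 64.7% of guidance peaks and 40.8% of all peaks, and below 20 kb it held 45.5% and 27.2%. Spans include introns, which are long in these genes, and exons were not placed here. Peaks of over 10000 bases from end to end, any introns included, made up 23 of the 108 (21.3%), against 13.0% of all peaks. By subgroup, the last 10% held 19 of 29 semaphorin peaks, 7 of 10 Robo peaks, 11 of 26 Eph receptor peaks and 9 of 19 plexin peaks. The plexins also held 7 of the 19 peaks in the first 10%.

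**Figure D2:**
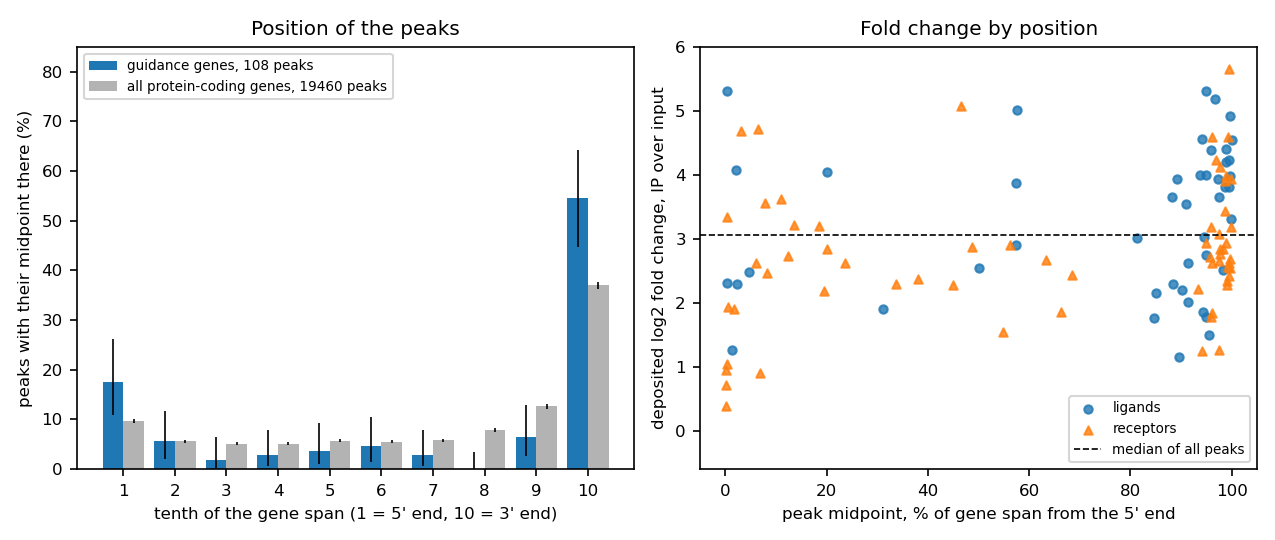
Left, share of peaks (%) with their midpoint in each of 10 equal bins of the gene span from the 5' end for guidance genes (blue, 108 peaks) and all protein-coding genes (grey, 19460 peaks), with exact binomial 95% intervals. The intervals treat peaks as independent. Right, deposited log2 fold change of each guidance peak against its position, circles for ligands and triangles for receptors: the 54.6% of peaks in the last bin span low and high values, and the lowest values, under 1, lie near the 5' end.

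In 31 guidance genes with 2 or more peaks, the outermost peaks were compared. The 3' value was the higher in 21 of 31 genes (67.7%, exact binomial 95% interval 48.6 to 83.3), against 55.7% of all protein-coding genes with 2 or more peaks, by the log2 fold change in the authors' deposited table. That interval holds the share of all genes, and the 21 include Sema3e with a difference of 0.00. The median difference, 3' minus 5', was 0.40 in the guidance genes and 0.17 in all genes in the authors' deposited table. By the plain ratio of reads the 3' peak was the higher in 20 of 31 guidance genes (64.5%, interval 45.4 to 80.8) and in 49.7% of all genes, with median differences of 0.33 and -0.01 on the log2 scale. The widest differences in the authors' deposited table were 3.51 for Plxna2, 3.02 for Nrp2 and 2.09 for Epha5. The order was turned in Sema6b (-1.80), Plxnc1 (-1.40), Plxna1 (-1.38) and Plxnb3 (-1.20). In 7 of the 31 genes the outermost peaks lie less than 10 points of the span apart, so that the comparison does not cover the gene. The 3' peak was the higher in 5 of these (Efna1, Ephb6, Sema3c, Sema3d and Sema5a) and the lower in 2 (Plxnc1 and Sema6b). In the other 24 genes the 3' peak was the higher in 16 (66.7%, interval 44.7 to 84.4), against 55.9% of all such genes.

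**Figure D3:**
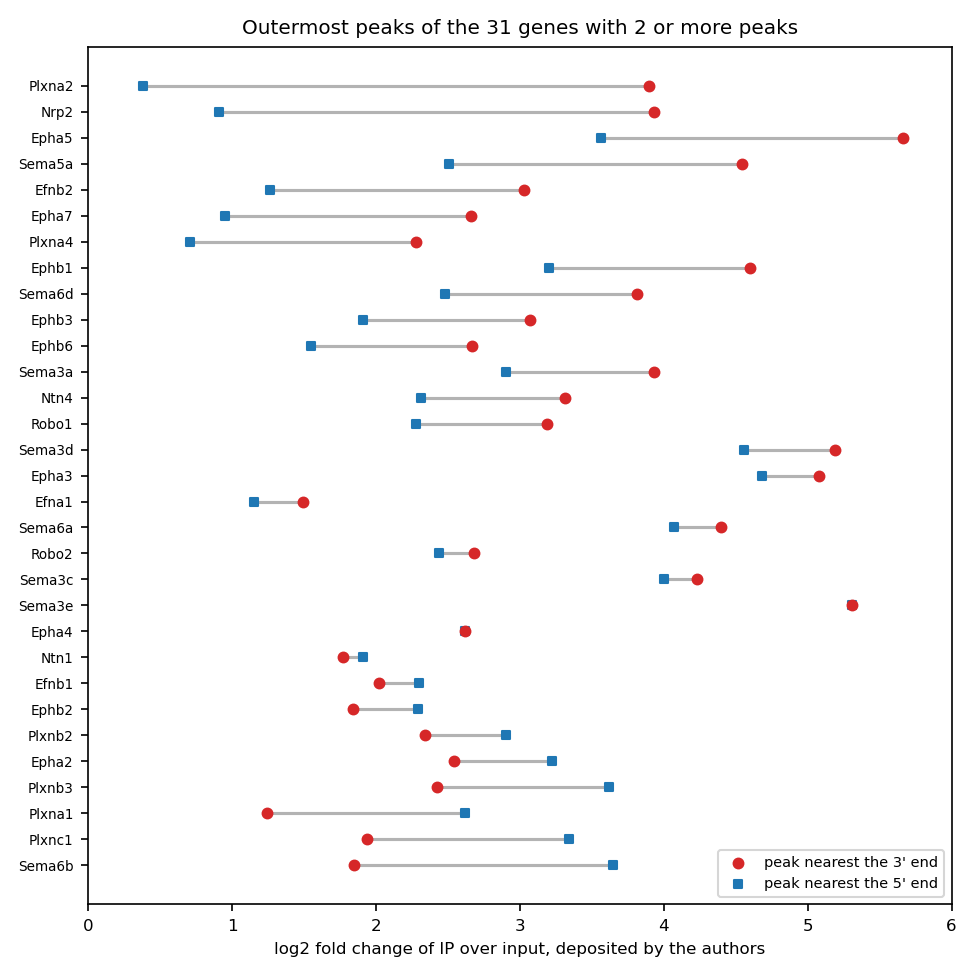
Deposited log2 fold change of IP over input for the peak nearest the 3' end (red circles) and nearest the 5' end (blue squares) of each of the 31 guidance genes with 2 or more peaks (rows, ordered by the difference). The 3' peak is the higher in 21 genes, with Plxna2 (3.51) and Nrp2 (3.02) at the top and Sema6b (-1.80) at the bottom.

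Peaks at transcription starts ranged widely. RefSeq start windows, on GRCm38.p6, were listed for 59 of the 69 genes. In genes with a listed start, 9 of 95 guidance peaks (9.47%) covered some of the first 50 transcribed bases, against 8.02% of all peaks. One of these, in Robo1, began far upstream, and the other 8, in 8 genes, began within 50 bases of the start. By the authors' deposited table they stood at 0.38 for Plxna2, 0.91 for Nrp2, 1.04 for Unc5b, 1.91 for Ephb3, 2.62 for Epha4, 3.22 for Epha2, 3.34 for Plxnc1 and 3.62 for Plxnb3. The last 3 lay above the median of all peaks. They were 3 of the 9 guidance peaks over a start (33.3%, interval 7.49 to 70.1), against 43.9% of such peaks in all genes. The letters GGAC, a common form of the methylated sequence, and AGAC were searched in the first 50 transcribed bases on the transcribed strand only. The second was added after the sequences had been seen. GGAC occurred in 18.9% and AGAC in 17.4% of all 32851 start windows, and at least 1 of both in 33.3%. Among the 8 genes, 4 held a match and 4, Plxna2, Nrp2, Unc5b and Epha4, held none in this window. The matches are places in these peaks where the searched letters occur. They are shown with the match in capitals, in 30 bases of transcribed sequence, 5' to 3'. The search left out the base after them, which is g in Plxnc1 and Ephb3, t in Epha2 and c in Plxnb3. The Epha2 stretch lies at chr4:141301232-141301261 (plus strand), that of Plxnc1 at chr10:94944810-94944839 (minus), that of Plxnb3 at chrX:73757109-73757138 (plus) and that of Ephb3 at chr16:21204813-21204842 (plus).
Epha2: caacttccattaaGGACttggagcaggagg
Plxnc1: ctccggcgaaggcGGACgaggaggaagcgt
Plxnb3: agctgatgtgaggAGACcccatttctgcac
Ephb3: cggctcctaccccGGACggcgagcgcacaa
A match describes letters and is not a mapped site. From end to end the peaks of Epha2 and Plxnb3 span 7543 and 2347 bases, and those of Plxnc1 and Ephb3 span 366 and 375 bases. Where the reads lie within these limits was not examined.

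The deposited log2 fold change and the plain ratio of reads went together in part, with a Spearman correlation of 0.78 across the 108 guidance peaks and 0.85 across all peaks, values that share the same reads. For the 108 peaks the deposited value exceeded the log2 ratio of IP to input reads by a median of 1.86, close to the 1.88 of all peaks, but the gap ran from 0.43 for an Efnb2 peak to 2.96 for a Sema3c peak. Its SD across peaks was 0.71 for guidance peaks and 0.53 for all peaks. The median gap was 2.79 in class 3 semaphorins, 2.69 in EphA receptors and 2.63 in Robos, but 1.48 in EphB receptors, 1.39 in ephrins and 1.34 in plexins. Sema6c and Sema3c, chosen for their contrast, show how far the measures can part. Sema6c, with 750 IP and 156 input reads and a ratio of 4.81 (4.04 to 5.75), stood at 2.75 in the authors' deposited table, whereas the wider Sema3c peak, with 2861 IP and 1219 input reads and a ratio of 2.35 (2.19 to 2.51), stood at 4.0. By median log2 read ratio the semaphorins stayed near the top (2.09) and the plexins moved up to 1.31, above the Eph receptors at 1.03. The Robos moved to the bottom at -0.02. Of the 108 peaks, 13 (12.0%) had fewer IP than input reads, against 11.3% of all peaks. Receptor genes, which held 62 of the 108 peaks, had 12 of these 13, and 5 of the 12 lay in Robos. How the deposited value was normalized was not given in the sources used here, and what sets the gap was not tested.

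**Figure D4:**
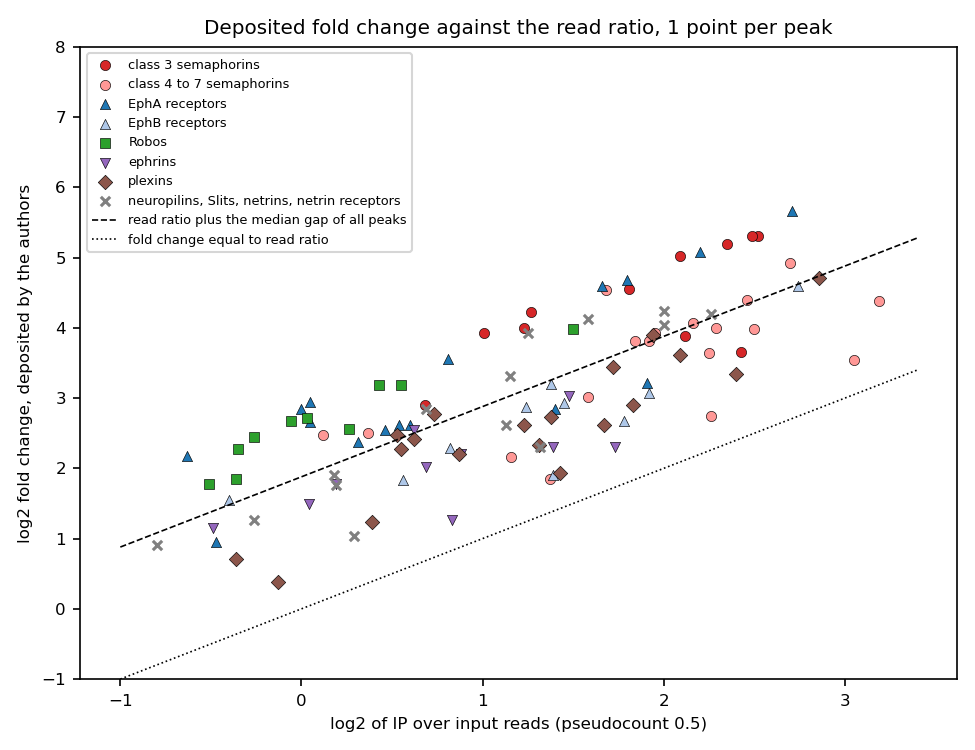
Deposited log2 fold change of each of the 108 guidance peaks against the log2 ratio of its IP to input reads, by subgroup. Class 3 semaphorins, EphA receptors and Robos lie mostly above the dashed line (read ratio plus the median gap of 1.88 over all peaks), and most plexins, ephrins and EphB receptors lie on or below it.

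Other genes of axon guidance, among them adhesion molecules, adaptors, proteases and cytoskeletal regulators, were taken from a list drawn up here. It was drawn up with earlier results of these data known. Of 99 such genes 73 (73.7%) had a peak, against 44.2% of all protein-coding genes. Their 154 peaks had a median of 3.23 in the authors' deposited table, and 87 of them lay above the median of all peaks. The strongest with at least 50 input reads were Adam10, Nck1, Alcam, Flrt3 and Lrrc4c, at 5.63, 5.38, 5.31, 5.11 and 4.94 in the authors' deposited table. Adam10, the protease that cleaves ephrins, had 910 IP and 143 input reads, a ratio of 6.36 (5.33 to 7.64). Nck1, an adaptor that couples Dcc and Eph receptors to the actin skeleton, had 23565 IP and 3674 input reads, a ratio of 6.41 (6.19 to 6.64). Flrt3, a membrane protein that binds Unc5 receptors and Robo1, had 3551 IP and 572 input reads, a ratio of 6.21 (5.68 to 6.79). Regulators of the actin and microtubule skeleton without a peak included Rhoa, Rac1, Cdc42, Cfl1, Dpysl2 and Crmp1. Others of this kind on the list, such as Enah, Limk2, Pak2, Pak3 and Dpysl3, had one.

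For Ntn3 and Sema4c, the strand with more IP reads was not the annotated strand, as in 5.87% of all genes with a peak and a listed start (2 of 44 guidance genes, 4.55%). The peak given to Ntn3 (chromosome 17, 24208861 to 24208960, plus strand) had 8979 IP and 4100 input reads and 2.62 in the authors' deposited table. The peak given to Sema4c (chromosome 1, 36558401 to 36559375, plus strand) had 420 IP and 188 input reads and 2.16 in the authors' deposited table. Both genes are annotated on the minus strand, and these peaks carry other gene identifiers than the minus-strand peaks over the same genes. The transcript that carries these 2 peaks was not identified here. Without both genes the median of the guidance peaks remained 2.84 in the authors' deposited table, and the share in the last 10% of the span was 54.7%.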

How the data were processed

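Polyadenylated RNA was fragmented to about 80 nt and enriched for m6A with a kit, per the labels' protocols. Listed in the submitters' processing notes are bcl2fastq 2.17.1.14, STAR 2.5.2a and Trimmomatic 0.32, and the builds GRCm38.p6 and GRCh38.p13 without their roles. Which peak caller and counter made the files was not given in the sources used here. Per the file headers, the counts in the deposited table are reads of IP and input in each peak, as whole numbers that name no library. The deposited log2 fold change, p-value and score of a peak are the authors' own, by a test that was not stated. The deposited peak list and table held the same 21195 intervals.

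Guidance genes were matched by symbol to RefSeq spans, and peaks were assigned by position with Python 3.11.15 and pandas 2.3.3. Ratios have exact binomial 95% intervals (scipy 1.17.1), and the log2 read ratio adds a pseudocount of 0.5 to both numbers. The assignment was tested on simulated data. The members and lists were chosen with earlier results of these data known, and no set test was run. Full values were to go to the 3 highest genes with at least 50 input reads and the gene with most peaks of each subfamily, the 5 peaks with most IP reads and those with a read ratio nearest 1. That rule was applied to finer classes of semaphorins and Eph receptors, and further genes were named after their values were seen. Of the other guidance genes the 5 highest were named. Alternatives varied the overlap, strand, thresholds, width and measure. Knockout and control were not compared, because no column belongs to a library.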

Additional observations from a re-analysis of the deposited data

Results flagged for a closer look

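Peaks on the strand with fewer IP reads, which entered no value above, overlapped 3 guidance genes, each with more reads than the 3 that a count of 0 allows. Over Ntn3 there were 4 such peaks with 5244 IP and 1836 input reads, against 8979 IP and 4100 input reads in the peak on the other strand. These peaks lie on the annotated strand of Ntn3, their log2 fold changes in the authors' deposited table ran from 1.74 to 2.64, and each carries 2 gene identifiers. The RefSeq span of Tbc1d24 also overlaps that of Ntn3. Over Sema4c, 1 such peak on the annotated strand (chromosome 1, 36549089 to 36550338) had 134 IP and 54 input reads, a ratio of 2.48 (95% interval 1.80 to 3.47), and 2.38 in the authors' deposited table. Over Ntn4, 1 peak on the strand opposite to the annotated one had 99 IP and 43 input reads and 2.88 in the authors' deposited table, and it lies within the RefSeq span of the noncoding gene Gm15915.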

How the results depend on the processing

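The number of guidance genes with a peak stayed between 46 and 50 under 11 alternatives (overlap, strand, adjusted p, fold change, input reads, width, identifiers, and without Ntn3 and Sema4c, the last chosen after seeing the data). The median of the deposited log2 fold change (2.84) stayed inside its interval under 11 of 13 alternatives, from 2.72 to 3.13. It was 3.28 for the strongest peak of each gene, and 1.26 as a log2 ratio of reads, another measure. The share of peaks in the last 10% of the span lay between 51.5% and 61.1% under 12 of 13 alternatives and was 64.7% for peaks of at most 10000 bases. The share with fewer IP than input reads (12.0%) lay between 9.41% and 13.1% under 10 of 11 alternatives and was 4.55% among peaks with a log2 fold change of 2 or more. The share of genes with the higher value at the 3' peak (67.7%) was 66.7% for peaks 10 or more points of the span apart and 64.5% by read ratio, both added after seeing the data. Of 36 pairs among 9 subfamilies, 24 kept their order when log2 fold changes were replaced by log2 read ratios. No paired analysis was possible because no column carries a library or a replicate number, and for the same reason leaving out replicates and the DESeq2 alternative were not run. With pooled reads, the spread between libraries is unknown for every value. Input reads limit the precision of weakly covered peaks such as those of Sema7a and Slit2.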

Other observations

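The identifiers of 3 guidance genes also appear on peaks outside the rule, which are given here as values. Upstream of the RefSeq start of Plxna2, on the same strand, a peak of 525 bases (chromosome 1, 194618293 to 194618817) had 2527 IP and 1129 input reads and a deposited log2 fold change of 3.63 by the authors' deposited table, so that the weak peak at 0.38 lies between 2 stronger ones. A peak with the identifier of Ntn1 begins at the 5' limit of its RefSeq span and extends upstream for 13672 bases, with 274 IP and 136 input reads and 2.60 in the authors' deposited table. A peak with the identifier of Ntn4 lies just beyond its 3' limit (chromosome 10, 93746367 to 93746891), with 44 IP and 15 input reads and 3.80 in the authors' deposited table. Over the 3' end of Ephb1, a peak on the opposite strand overlapped the gene by 20.1% of its own length and carried another identifier, with 526 IP and 119 input reads, a ratio of 4.42 (95% interval 3.62 to 5.44), and 4.20 in the authors' deposited table.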
